A study of Mus musculus with 9 samples.

Results

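Intrinsically photosensitive retinal ganglion cells (ipRGCs) were followed through 10 genes that mark them: the transcription factor genes Eomes, Tbx20 and Irx6, the neuropeptide genes Adcyap1 and Nmb, the vesicle gene Baiap3, the signalling genes Rasgrp1 and Igf1, and the matrix and membrane genes Spon1 and Anxa2. They were taken by name from a list of known ipRGC markers, not by any measured value, out of 53280 genes in the count table. All 10 passed the filter on low counts and stood among the 21150 genes tested.

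RNA was sequenced from whole neural retina of mouse pups at postnatal day 4 (P4). Opn4KO pups, knockouts of the melanopsin gene, were compared with wildtype littermates of crosses between Opn4 heterozygotes. Light of about 300 lux reached every litter, and pups of both genotypes were killed between ZT6 and ZT7 (hours after lights on). A library held 4 retinas from 2 animals of 1 genotype, and there were 5 knockout and 4 wildtype pools. The labels name neither litter, sex, strain nor the kind of Opn4 allele. No label says that the ipRGCs themselves are missing in the knockout.

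ipRGCs are the ganglion cells that carry melanopsin, and through it they respond to light before rods and cones work. Melanopsin acts through Gq proteins and phospholipase C to open TRPC channels, and the axons release glutamate and the peptide PACAP onto brain centres that set the clock and the pupil. In mouse, Eomes is required for these cells to form and survive, and Tbx20 is active in part of them. None of the 10 genes is exclusive to ipRGCs in every stage and tissue. Irx6 is also active in some bipolar cells, and Anxa2 and Igf1 are made by glial, vascular or immune cells elsewhere.

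In Opn4 knockout retinas, the transcripts of these markers measured 84.5 to 121% of the wildtype level, while those of Opn4 were at a small remainder. Opn4 was at 11.7% of the wildtype level in knockout (95% interval 9.45 to 14.4%; log2 fold change −3.10, SE 0.14, edgeR quasi-likelihood adjusted p = 1.28e-07), with 1.07 to 1.82 CPM (counts scaled to library size) in the knockout pools and 11.4 to 12.03 CPM in the wildtype pools. No interval of a marker came near that size, and the lowest bound was 64.5% of wildtype, for Nmb. Of the 10, Spon1 was higher in knockout and none was lower at an edgeR adjusted p under 0.05. Of all tested genes, 3.59% passed that threshold, 1.34% higher and 2.25% lower. An unadjusted p under 0.05 was reached by Spon1, Rasgrp1 and Irx6, and by 16.5% of all tested genes. DESeq2 called Spon1 alone of the 10, and 9.6% of all genes that it tested. The median log2 fold change of the 10 markers (knockout minus wildtype throughout) was 0.00, as was the median of all tested genes. The call of Spon1 was close to the threshold and held in 2 of 9 fits with a pool left out. With knockout pools 1 and 2 left out, 0 of 10 markers passed, beside 2.27% of genes. In that fit 2 markers had an unadjusted edgeR p under 0.05, and the share of all genes with such a p was not counted. Because the tissue is bulk retina, fewer cells of a type and less RNA per cell cannot be told apart.

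**Figure D1:**
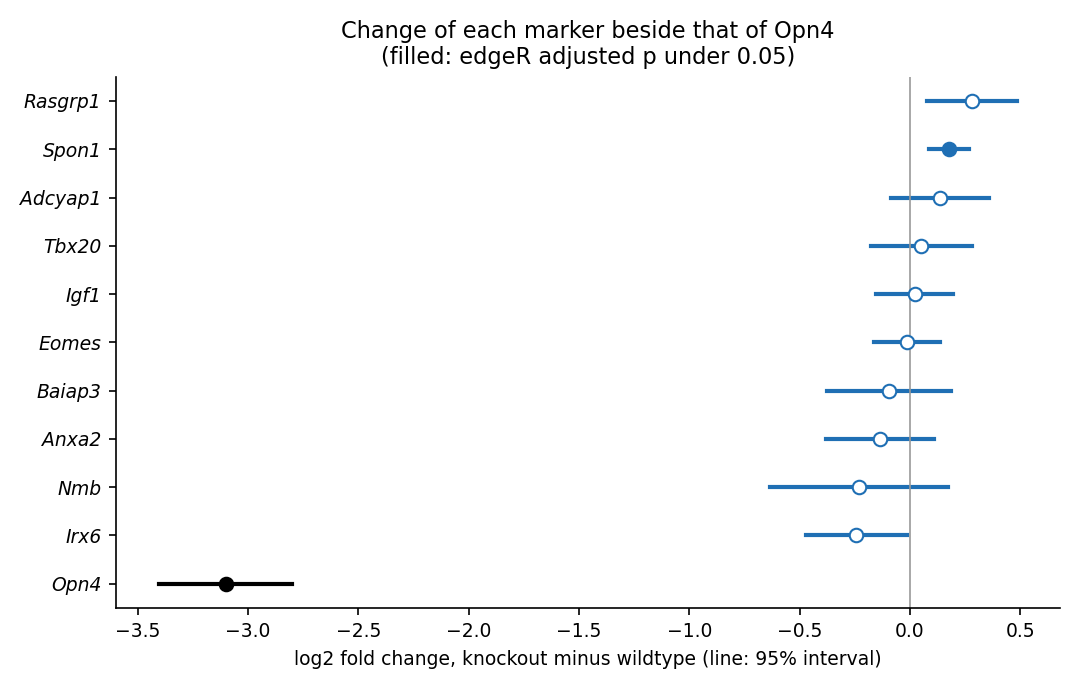
Log2 fold change of each marker and of Opn4, knockout minus wildtype, with the edgeR estimate as a point and its 95% interval as a line (5 knockout and 4 wildtype pools). The markers lie between −0.24 and 0.28, and Opn4 lies at −3.10.

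The counts behind these values totalled 65.5 M to 86.1 M (M, mega) per pool, and the markers drew 101 to 9818 counts in a pool. General ganglion cell genes summed to 2606 to 2962 CPM in knockout and 2752 to 3073 CPM in wildtype pools, and lens genes to 8.84 to 20.8 and 7.16 to 8.53 CPM. The lens crystallin genes Cryaa and Cryab were called higher in knockout (edgeR adjusted p = 0.0394 and 0.0304, Cryab alone by DESeq2) and lost that call without knockout pools 1 and 2 (0.255 and 0.170). The knockout had lower levels of 16 among 20 progenitor and cell cycle genes by edgeR (18 were called by DESeq2), and 15 without knockout pools 1 and 2, with summed levels of 1532 to 1774 against 2296 to 2414 CPM. The part of these differences in the marker values was not tested. Xist is the RNA of the inactive X chromosome of females. It measured 14.1 CPM in wildtype pool 3 and 710.4 to 1066 CPM in the other 8 pools. The values of Irx6, Nmb, Baiap3, Spon1 and Anxa2 without that pool are given with those genes.

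The sequence just before the start of Eomes, Adcyap1 and Opn4 is shown because the T-box factors among the markers are thought to act on genes of this cell type. RefSeq (GRCm38.p6) gave a start for 8 of the 10 markers. Windows from 250 bases before to 50 bases after the start were searched on both strands for 4 motifs. GTGTGA is the core of T-box sites, and AGGTGTGA is a longer T-box site that holds this core. ATTAAT is the core bound by POU4F ganglion cell factors. TATAAA is the element that binds the TATA-binding protein. The lines give the 250 bases before the start, 5′ to 3′ on the strand of the gene, with each match in capitals. They lie at chr9:118477939-118478188 (plus strand) for Eomes, chr17:93198767-93199016 (plus strand) for the upstream of 2 starts of Adcyap1, and chr14:34600143-34600392 (minus strand) for Opn4.
Eomes: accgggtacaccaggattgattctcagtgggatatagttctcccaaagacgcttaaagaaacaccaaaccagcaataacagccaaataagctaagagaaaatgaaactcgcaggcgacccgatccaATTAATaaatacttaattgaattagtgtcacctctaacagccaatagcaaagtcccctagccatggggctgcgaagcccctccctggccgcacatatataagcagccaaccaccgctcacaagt
Adcyap1: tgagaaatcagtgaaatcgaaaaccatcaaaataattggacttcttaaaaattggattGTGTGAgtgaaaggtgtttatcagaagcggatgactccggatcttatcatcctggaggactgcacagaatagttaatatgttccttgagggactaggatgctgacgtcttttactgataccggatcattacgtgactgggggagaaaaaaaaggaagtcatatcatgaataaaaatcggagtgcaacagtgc
Opn4: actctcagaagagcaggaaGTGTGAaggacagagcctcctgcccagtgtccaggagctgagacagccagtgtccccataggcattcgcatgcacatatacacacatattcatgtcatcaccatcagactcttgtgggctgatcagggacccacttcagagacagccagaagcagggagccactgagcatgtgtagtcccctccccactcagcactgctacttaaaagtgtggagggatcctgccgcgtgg
The Eomes window held ATTAAT from base −124, a sequence that reads alike on both strands, and no T-box core. GTGTGA stood from base −192 in the Adcyap1 window and from base −231 in the Opn4 window. These letters are common: GTGTGA was found in 14.5% of 32851 RefSeq windows, AGGTGTGA in 1.28%, ATTAAT in 4.75% and TATAAA in 13.6%. Among the 8 markers, GTGTGA was found in Adcyap1 alone, AGGTGTGA in none, ATTAAT in Eomes alone, and TATAAA in Anxa2 and at the downstream start of Adcyap1.

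Eomes, the T-box transcription factor that founds the ipRGC fate in mouse, was measured first among the regulators. Its gene spans chromosome 9, 118478212 to 118486132, on the plus strand (GRCm38, GENCODE M21). Its level was 41.3, 39.3, 45.5, 45.9 and 45.3 CPM in knockout pools 1 to 5, against 49.3, 43.6, 43.2 and 39.5 CPM in wildtype pools 1 to 4, the order kept below. The groups overlapped almost completely, and the wildtype pools covered nearly the whole range. The means were 43.5 ± 2.97 (SD, n = 5) and 43.9 ± 4.07 CPM (SD, n = 4), with a log2 fold change of −0.01 (adjusted p = 0.954 by edgeR, SE 0.07). The 95% interval placed the knockout at 89.2 to 110.0% of wildtype, and its sign turned without knockout pool 1 or 2 or wildtype pool 1 (0.00, 0.02 and 0.04).

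Tbx20, a related T-box factor on the minus strand of chromosome 9 (24718138 to 24774303), was low in CPM and drew 487 to 735 counts in a pool. Its level was 6.74, 6.74, 7.49, 7.71 and 8.60 CPM in the knockout pools, against 8.39, 6.66, 6.95 and 6.77 CPM in the wildtype pools. The groups overlapped, and wildtype pool 1 stood apart from the other 3 wildtype pools. The difference on the log2 scale was 0.05 (adjusted p = 0.875 by edgeR, SE 0.11), with knockout at 104% of wildtype (95% interval 88.4 to 122%).

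Irx6, a homeodomain factor of the Iroquois family on chromosome 8 (92674288 to 92680956, plus strand), had the lowest level relative to wildtype. Knockout pools gave 18.1, 20.4, 21.3, 22.3 and 22.6 CPM, and 24.2, 20.2, 30.6 and 24.1 CPM came from wildtype pools. All 5 knockout pools lay below the wildtype mean, but wildtype pool 2 lay within the knockout range. The log2 fold change of −0.24 (SE 0.11) did not pass adjustment over all genes (edgeR p = 0.0380, adjusted p = 0.267; exact two-sided permutation p = 0.103). Without wildtype pool 3, the pool with little Xist, it was −0.13 (edgeR adjusted p = 0.586).

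**Figure D2:**
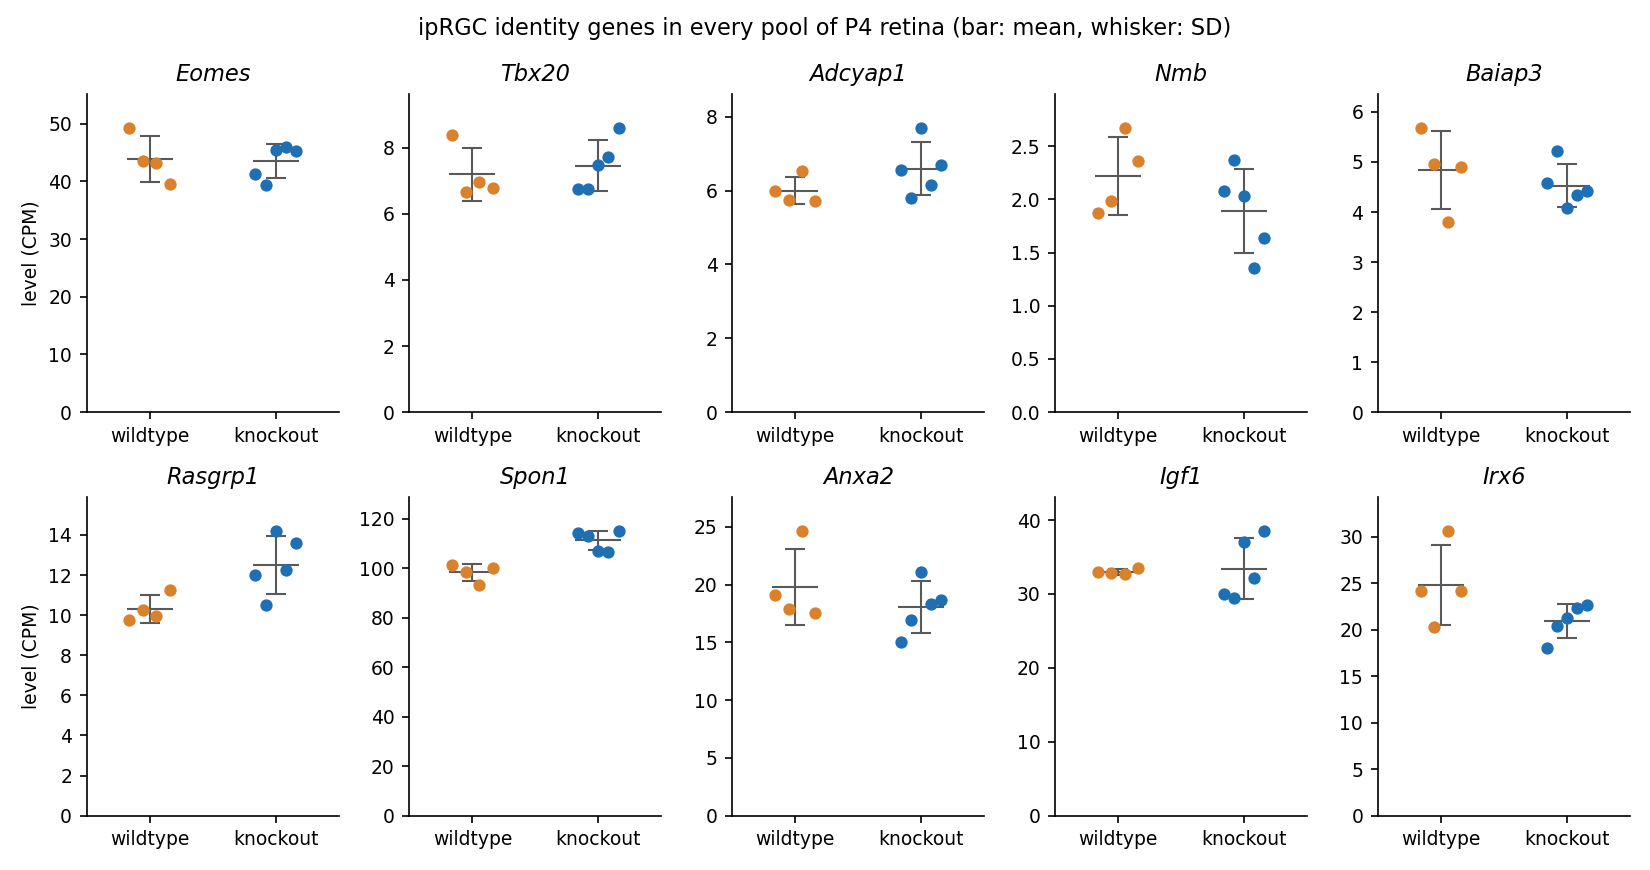
Level of each marker in CPM in every pool (points), with the group mean (bar) and SD (whisker) for 4 wildtype and 5 knockout pools; each axis starts at 0. The groups do not overlap for Spon1 alone (8.29% of all tested genes), at 93.3 to 101 CPM in wildtype and 107 to 115 CPM in knockout.

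Adcyap1 encodes PACAP, the peptide that ipRGC axons release beside glutamate (chromosome 17, 93199017 to 93206537, plus strand). Its level was 6.56, 5.81, 7.70, 6.16 and 6.69 CPM in knockout and 5.98, 5.75, 6.52 and 5.72 CPM in wildtype pools. The knockout pools reached higher, with 3 of 5 above every wildtype pool, and the ranges overlapped. On the log2 scale the genotypes differed by 0.14 (adjusted p = 0.576 by edgeR, SE 0.10), and the interval ran from 94.1 to 128% of wildtype. With each pool left out the difference ranged from 0.07, without knockout pool 3 (edgeR adjusted p = 0.812), to 0.18.

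Nmb encodes neuromedin B, a bombesin-like peptide (chromosome 7, 80902227 to 80905076, minus strand), and was the least counted marker, with 101 to 222 counts in a pool. Wildtype pools gave 1.87, 1.99, 2.68 and 2.36 CPM, against 2.08, 2.37, 2.03, 1.35 and 1.64 CPM in knockout. Knockout pools 4 and 5 were the lowest of the 9, and the other 3 lay within the wildtype range. In log2 terms knockout stood at −0.23 (adjusted p = 0.599 by edgeR, SE 0.19). With each pool left out it ranged from −0.33 to −0.13, the smallest differences being those without wildtype pool 3 or knockout pool 4 (edgeR adjusted p = 0.846 and 0.796), and it was −0.42 without knockout pools 1 and 2 (0.392). The interval of 64.5 to 112% of wildtype was the widest of the 10, and the pools do not tell apart the levels inside it. Its exons share 163 bases, 20.6% of their length, with the neighbouring gene Sec11a on the same strand, and reads of that stretch may come from either gene.

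Baiap3, a protein related to Munc13 that acts in dense-core vesicle traffic (chromosome 17, 25242659 to 25256364, minus strand), showed no separation of the groups. Its values were 4.59, 5.21, 4.07, 4.35 and 4.41 CPM in knockout and 5.69, 4.96, 3.80 and 4.90 CPM in wildtype pools. The whole knockout range lay within the wildtype range. A log2 fold change of −0.10 resulted (adjusted p = 0.787 by edgeR, SE 0.13). It depended on single wildtype pools, at −0.01 without pool 1 and −0.20 without pool 3 (edgeR adjusted p = 0.983 and 0.504), and was −0.18 without knockout pools 1 and 2 (0.643). Summed TPM gave −0.31 (limma adjusted p = 0.611), and the authors' deposited table −0.46 with a q-value of 0.615.

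Rasgrp1, an exchange factor that turns on Ras in response to diacylglycerol and calcium (chromosome 2, 117279993 to 117343001, minus strand), had the highest level relative to wildtype. Wildtype pools gave 9.74, 10.3, 9.97 and 11.3 CPM, while 12.01, 10.5, 14.2, 12.3 and 13.6 CPM were counted in knockout. Of the 5 knockout pools, 4 lay above every wildtype pool and knockout pool 2 lay within the wildtype range. The means were 12.5 ± 1.45 (SD, n = 5) and 10.3 ± 0.678 CPM (SD, n = 4). The log2 fold change of 0.28 (SE 0.09) had an exact two-sided permutation p of 0.0397 but did not pass adjustment over all genes (edgeR adjusted p = 0.144). Summed TPM gave 0.18 (limma adjusted p = 0.484). Over the 16 other settings of the count tests the adjusted p ranged from 0.0577 to 0.298. In the authors' deposited table, Rasgrp1 had a log2 fold change of 0.23 and a q-value of 0.458.

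Igf1, the secreted insulin-like growth factor (chromosome 10, 87858265 to 87937042, plus strand), had near-equal means and a wider spread among knockout pools. The wildtype pools were close together at 32.9, 32.8, 32.6 and 33.5 CPM, against 30.0, 29.5, 37.0, 32.2 and 38.5 CPM in knockout. Knockout values lay on both sides of the narrow wildtype range. The means were 33.4 ± 4.12 (SD, n = 5) and 33.0 ± 0.377 CPM (SD, n = 4), the log2 fold change was 0.02 (adjusted p = 0.938 by edgeR, SE 0.08), and the difference in spread was not tested.

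Spon1, which encodes F-spondin, a secreted matrix protein that guides axons (chromosome 7, 113765998 to 114043370, plus strand), was the only marker called. Knockout pools gave 114, 113, 107, 107 and 115 CPM, against 101, 98.6, 93.3 and 100.2 CPM from wildtype. Every knockout pool lay above every wildtype pool, as was so for 3.92% of all tested genes. The means were 111 ± 4.02 (SD, n = 5) and 98.3 ± 3.51 CPM (SD, n = 4), a small difference at 113% of wildtype (95% interval 106 to 120%). The estimate was 0.18 on the log2 scale (adjusted p = 0.0341 by edgeR, SE 0.04). Its exact two-sided permutation p of 0.00794 is the lowest that a split of 9 pools into 5 and 4 allows.

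The call of Spon1 was close to the threshold. When each pool was left out in turn, its log2 fold change stayed between 0.15 and 0.19, but the edgeR adjusted p ran from 0.0400 to 0.0905 and passed in 2 of 9 cases, without knockout pool 3 and without knockout pool 4. The smallest estimate, 0.15 (edgeR adjusted p = 0.0628), came without wildtype pool 3, the pool with little Xist and the lowest of the 9 for Spon1. Without knockout pools 1 and 2 the log2 fold change was 0.15 (edgeR adjusted p = 0.148). The Wald test of DESeq2 gave an adjusted p of 0.00297 in a test that called 9.60% of genes. The summed transcript levels, from the same libraries, lay at 29.1 to 32.1 TPM in knockout and 26.4 to 27.7 TPM in wildtype. The share of all symbols without overlap in TPM was not counted. Their log2 fold change was 0.17 for Spon1 (limma adjusted p = 0.107, in a test that called 2.16% of symbols). In the authors' deposited table the log2 fold change was 0.14 with a q-value of 0.271, and 1.46% of the genes listed there had a q under 0.05.

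Anxa2, a calcium-dependent protein that binds membranes together with S100a10 (chromosome 9, 69453620 to 69491795, plus strand), varied between wildtype pools with a coefficient of variation of 16.6%. Its values were 15.0, 17.0, 21.1, 18.3 and 18.7 CPM in knockout and 19.1, 17.9, 24.6 and 17.6 CPM in wildtype pools. The groups overlapped, and wildtype pool 3 was the highest of the 9, as it was for Irx6 and Nmb. The estimate was −0.14 on the log2 scale (adjusted p = 0.619 by edgeR, SE 0.11), and −0.01 without wildtype pool 3. The sign turned to 0.08 for summed TPM (limma adjusted p = 0.865). In the authors' deposited table Anxa2 was at 0.24 with a q-value of 0.799, Tbx20 at 0.28 (q-value 0.727), Igf1 at 0.17 (q-value 0.803) and Irx6 at −0.14 (q-value 0.850).

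Set against each other per transcript length, the markers spanned a 40.5-fold range of TPM (transcript abundance relative to length and sample total). Anxa2 had the highest mean over the 9 pools at 63.0 TPM (42.2 to 72.0), before Spon1 at 29.0 (26.4 to 32.1) and Eomes at 22.7 TPM (20.4 to 25.4). Each of these ranges was clear of the next. Irx6, Igf1 and Nmb followed at 12.3, 11.4 and 10.02 TPM, then Adcyap1 at 6.33, Rasgrp1 at 3.95, Baiap3 at 2.93 and Tbx20 at 1.55 TPM, and from Irx6 downward neighbours overlapped. So 3 of 9 neighbouring pairs were separated.

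The top of that order depended on the measure. As CPM per kilobase of the longest annotated transcript, Spon1 led at 17.1, before Eomes at 12.3 and Anxa2 at 8.25, and the span was 21.2-fold. The lowest places stayed with Baiap3 at 1.004 and Tbx20 at 0.807 CPM per kilobase. Of the 10 genes, 5 had the same rank by both measures.

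**Figure D3:**
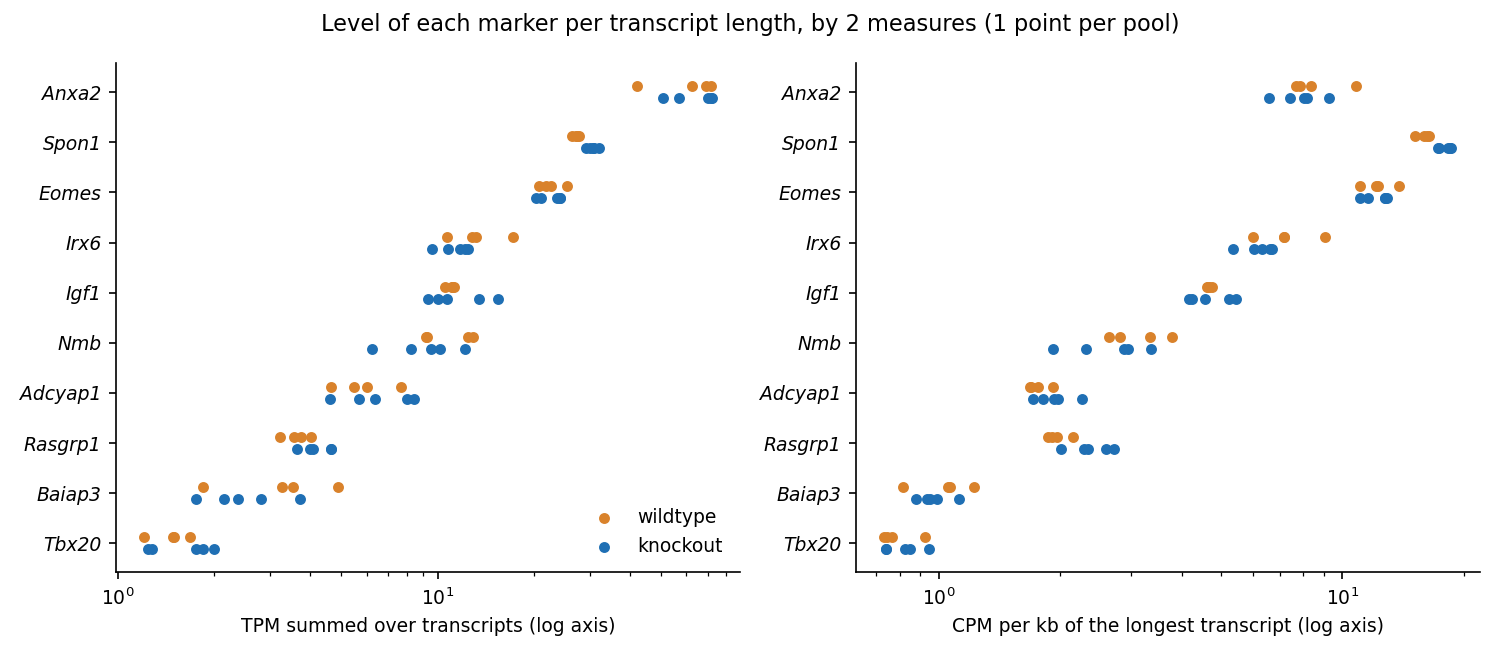
Level of each marker per transcript length in every pool, as TPM summed over its transcripts (left) and as CPM per kilobase of its longest transcript (right), on log axes, with wildtype in orange and knockout in blue. Anxa2 leads on the left at a mean of 63.0 TPM and stands below Spon1 and Eomes on the right at 8.25 CPM per kilobase.

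The TPM table splits the markers into 51 transcript rows without identifiers, of which 23 were high enough to test. None was called by limma, while 0.178% of all tested rows were. An unadjusted p under 0.05 was found in 5 of the 23 and in 9.24% of all tested rows. On summed TPM 0 of 10 markers were called, and Spon1 alone had an unadjusted p under 0.05, as did 15.5% of all tested symbols. The lowest adjusted p was 0.296, for the main row of Nmb. That row held 5.76, 6.05, 5.63, 3.71 and 5.11 TPM in knockout and 7.90, 6.58, 8.30 and 7.51 TPM in wildtype pools. The log2(TPM + 0.5) difference was −0.50 (SE 0.15, limma adjusted p = 0.296), a scale that understates changes of low rows. The knockout and wildtype values of this row do not overlap. The row was singled out by its low p, and the share of all tested rows without overlap was not counted. Row 2 of Nmb differed the other way, by 1.05 (unadjusted p = 0.0455, limma adjusted p = 0.528), at 0.376 to 1.49 TPM in knockout and 0 to 1.41 TPM in wildtype pools, ranges that overlap. The summed TPM of Nmb differed by −0.24 (limma adjusted p = 0.571).

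Eomes and Spon1 each had 1 leading row, with 77.5 to 85.8% of the Eomes TPM and 98.0 to 99.6% of the Spon1 TPM in every pool. Rasgrp1 was divided differently in each pool. Its first row took from 0% (knockout pool 2 and wildtype pool 2) to 82.0% (knockout pool 3), while its summed level kept within 3.21 and 4.66 TPM. Row 2 of Anxa2 ran from near 0 to 31.1 TPM among the knockout pools and from 13.0 to 20.5 TPM among the wildtype pools. Its row 3 ran from 0 to 33.5 TPM, with high and low pools in both genotypes. The source of these swings was not tested, and they limit what single rows of Rasgrp1 and Anxa2 can show.

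**Figure D4:**
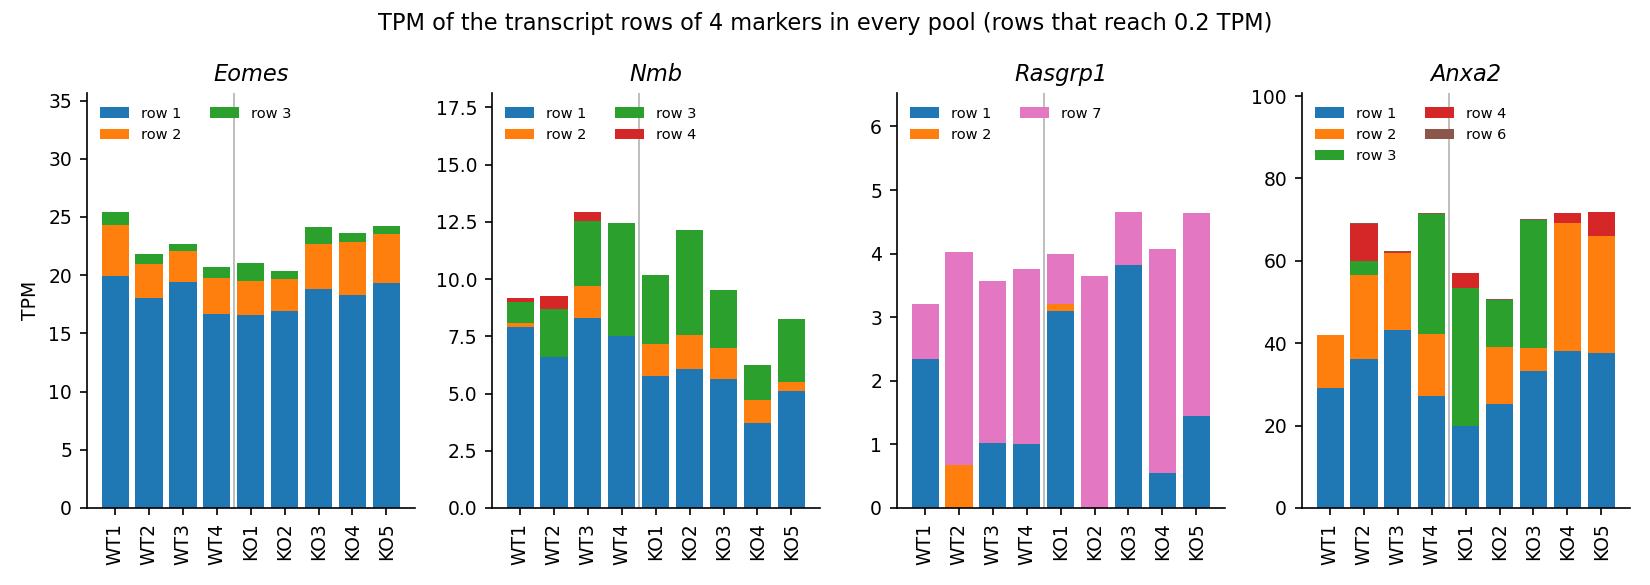
TPM of the transcript rows of Eomes, Nmb, Rasgrp1 and Anxa2 stacked for each pool (WT1 to WT4 wildtype, KO1 to KO5 knockout; rows that reach 0.2 TPM). The proportions of Eomes are steady between pools, the first row of Nmb lies at 3.71 to 6.05 TPM in knockout and 6.58 to 8.30 TPM in wildtype, and the shares of the rows of Rasgrp1 and Anxa2 vary from pool to pool.

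The markers did not vary together from pool to pool as a block. Of 45 pairs, 26 had a positive Pearson r of log2 CPM over the 9 pools, and the median r was 0.12. An unadjusted exact permutation p of r under 0.05 was found in 5 pairs, and none passed adjustment over the pairs. The T-box genes Eomes and Tbx20 had r = 0.81 (exact permutation p = 0.00836, adjusted 0.233) and rho = 0.72 (exact permutation p = 0.0369, adjusted 0.484). It was 0.82 within knockout and 0.87 within wildtype pools, and 0.71 without the 2 pools farthest from the median of Eomes. Anxa2 and Irx6 had r = 0.83 (exact permutation p = 0.0104, adjusted 0.233) and rho = 0.68 (exact permutation p = 0.0503, adjusted 0.484). That relation rested on knockout pool 1 and wildtype pool 3, without which r was 0.11. The other pairs of the 5 were Adcyap1 with Rasgrp1 (r = 0.73), Spon1 with Irx6 (r = −0.71) and Adcyap1 with Baiap3 (r = −0.69). Their exact permutation p was 0.0217, 0.0246 and 0.0382 (adjusted 0.276, 0.276 and 0.343). For Adcyap1 with Rasgrp1, r was 0.89 within knockout but −0.57 within wildtype pools. For Spon1 with Irx6 it was −0.40 and −0.69, and for Adcyap1 with Baiap3 −0.83 and −0.74. Without the 2 pools farthest from the median of the first gene named, r was 0.24, −0.74 and −0.69. Eomes and Nmb had rho = −0.78 (exact permutation p = 0.0172, adjusted 0.484) and r = −0.60.

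Among 15744 genes with a mean of at least 1 CPM, those with the pattern most like Eomes over the 9 pools were Mob3a (r = 0.95), Arl10 (r = 0.94) and Wdr18 (r = 0.92), and Tbx20 came at rank 49. These r values are descriptions of 9 libraries that share a scaling. Opn4 had r = 0.03 with Eomes. Since the Opn4 level is split by genotype, that r mostly restates the small genotype difference of Eomes. The r of Opn4 with Eomes within a genotype was not computed.

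The partners of the markers are given by lists of known genes. Of 12 genes of the melanopsin cascade, edgeR called Opn4 alone, which was lower, and the median log2 fold change was −0.02. DESeq2 called Plcb4 as well, a phospholipase C gene that stood at 80.3 ± 1.84 CPM in knockout against 70.2 ± 5.33 CPM in wildtype. Its log2 fold change was 0.19 (edgeR adjusted p = 0.0564, and 0.126 without knockout pools 1 and 2). Its knockout pools all lay above the wildtype pools, as was so for 3.92% of all tested genes. Receptors, processing enzymes and related peptides (Vip and Grp) of PACAP and neuromedin B had 0 of 9 tested genes called by edgeR or DESeq2. The median of the 9 was 0.04, and 1 had an unadjusted p under 0.05. Among them the PACAP and VIP receptor gene Vipr2 stood at 89.1 ± 7.13 CPM in knockout (SD, n = 5) against 86.2 ± 6.33 CPM in wildtype (SD, n = 4), and the peptide-amidating enzyme gene Pam 50.5 ± 2.76 and 52.3 ± 2.32 CPM. The IGF axis, with the receptor of Igf1, related ligands and binding proteins, had 0 of 14 called by either tool and 1 with an unadjusted p under 0.05 (median −0.07). Igf1r, the receptor gene, measured 204 ± 5.68 and 202 ± 14.3 CPM, and the ligand gene Igf2 197 ± 40.1 and 215 ± 31.7 CPM.

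Around the regulators, 1 of 10 tested T-box family genes was called, by edgeR and by DESeq2. Tbx2, a repressor of that family active in dorsal retina, fell from 222 ± 9.29 CPM in wildtype (SD, n = 4) to 196 ± 9.89 CPM in knockout (SD, n = 5), with a log2 fold change of −0.18 (adjusted p = 0.0489 by edgeR, SE 0.05). That call was lost without each single pool but knockout pool 5 (8 of 9 cases, adjusted p up to 0.126), without knockout pools 1 and 2 (0.198) and with the size factors of DESeq2. The other 5 Iroquois genes were not called by edgeR (2 with an unadjusted p under 0.05, and Irx5 called by DESeq2), and all had negative log2 fold changes, from −0.29 to −0.21 around a median of −0.23. The most abundant of them, Irx5, stood at 33.2 ± 3.82 CPM in knockout against 40.2 ± 1.66 CPM in wildtype (edgeR adjusted p = 0.0757), and Irx4 15.5 ± 2.12 and 19.1 ± 2.70 CPM (0.191). Irx6 itself was at −0.24 on the log2 scale, and at −0.13 without wildtype pool 3. Without knockout pools 1 and 2 the median of those 5 was −0.17. Wildtype pool 3, the pool with little Xist, was the highest wildtype pool for Irx1, Irx2, Irx4 and Irx5, though not for Irx3. The part of that pool in the changes of this family was not tested.

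Genes related to the other markers gave 1 edgeR call. Spon2, a secreted relative of Spon1, rose from 8.04 ± 0.942 CPM in wildtype (SD, n = 4) to 10.9 ± 0.439 CPM in knockout (SD, n = 5). Its log2 fold change was 0.44 (adjusted p = 0.0146 by edgeR, SE 0.09). It stayed called in 7 of 9 cases with a pool left out, but not without wildtype pool 2 or wildtype pool 4 (edgeR adjusted p = 0.0549 and 0.0608), nor without knockout pools 1 and 2 together (0.0854). The other 8 tested relatives of F-spondin were not called, and the median of the 9 was −0.08. Annexins with S100a10 had 0 of 9 called by edgeR or DESeq2 and none with an unadjusted p under 0.05 (median −0.03). The partner gene S100a10 stood at 31.5 ± 3.02 CPM in knockout against 33.4 ± 3.74 CPM in wildtype, and Anxa6 41.3 ± 3.03 and 37.9 ± 3.05 CPM. RasGRP and Ras genes had 0 of 10 called by either tool and 1 with an unadjusted p under 0.05 (median 0.02), with Nf1, a brake on Ras, at 136 ± 0.999 CPM in knockout and 133 ± 18.3 CPM in wildtype. The Munc13 family had 0 of 4 called by edgeR and 2 with an unadjusted p under 0.05 (median 0.19). Its Unc13b stood at 205 ± 21.5 CPM in knockout against 167 ± 17.6 CPM in wildtype (edgeR adjusted p = 0.0727, called by DESeq2), and Unc13a 138 ± 6.86 and 139 ± 9.22 CPM.

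**Figure D5:**
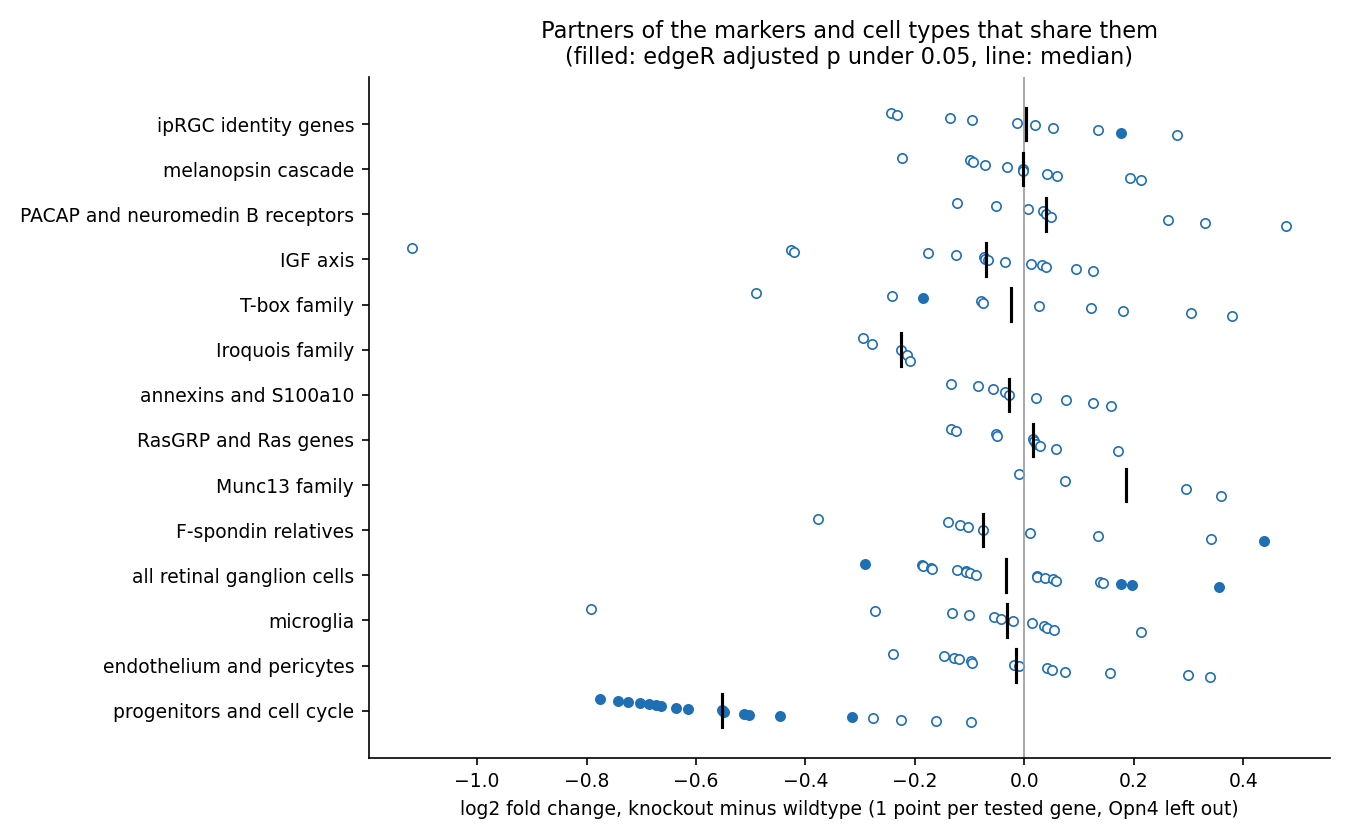
Log2 fold change, knockout minus wildtype, of each tested gene (points, filled where the edgeR adjusted p is under 0.05) in the marker list, the lists of their partners and lists of cell types, with the median of the points shown as a line and Opn4 left out. The ipRGC markers centre on 0.00, the 5 Iroquois genes lie between −0.29 and −0.21, and the progenitor and cell cycle genes centre on −0.55.

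Genes shared by all ganglion cells moved in both directions. Of 20, Nefh (a heavy neurofilament), Slc17a6 (the vesicular glutamate transporter of ganglion cells) and Ebf3 rose, by 0.36, 0.20 and 0.18 on the log2 scale (edgeR adjusted p = 0.00834, 0.0464 and 0.0215), and Sox11, a factor of young neurons, fell by 0.29 (edgeR adjusted p = 0.00514). The median log2 fold change of the 20 was −0.03, beside 0.00 for the ipRGC markers. Nefh and Sox11 kept their calls without any 1 pool, while Slc17a6 kept it in 2 of 9 cases, without knockout pool 1 and without knockout pool 2 (edgeR adjusted p up to 0.134 in the others), and Ebf3 in 4 of 9, without knockout pools 1, 4 and 5 and wildtype pool 3 in turn (edgeR adjusted p up to 0.0737). Without knockout pools 1 and 2, Ebf3 lost its call (edgeR adjusted p = 0.0596).

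Cell types that could also supply marker transcripts were read from their own genes. None of 12 microglial genes was called by edgeR or DESeq2, and none had an unadjusted p under 0.05, with sums of 135 to 153 CPM in knockout and 137 to 168 CPM in wildtype pools. Csf1r, a growth factor receptor of microglia, stood at 25.7 ± 1.49 CPM in the knockout pools against 26.7 ± 1.30 CPM in the wildtype pools. Of 14 endothelial and pericyte genes edgeR called none and DESeq2 Rgs5, and 2 had an unadjusted p under 0.05, with sums of 477 to 528 and 437 to 507 CPM. None of 6 astrocyte genes was called by either tool, with 3 at an unadjusted p under 0.05 and sums of 101 to 154 and 120.1 to 148 CPM. Of 12 bipolar cell genes 7 were higher by edgeR and 5 were called by DESeq2, at a median log2 fold change of 0.33, and of 10 Mueller glia genes 2 were higher by either tool, Rlbp1 and Car14. Of 12 amacrine genes, Gad2 and Ptf1a were lower by edgeR, with Tfap2a (lower) and Slc6a9 (higher) also called by DESeq2, and of 10 pigment epithelium and choroid genes none was called by either tool or had an unadjusted p under 0.05. Without knockout pools 1 and 2, 2 of the bipolar, 2 of the Mueller glia and 1 of the amacrine genes remained past the threshold. The part of these cell types in the level of any marker was not tested.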

How the data were processed

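Poly-A RNA of 9 retina pools was sequenced by the submitters as paired reads of 150 bases, from more than 500 ng of RNA with an integrity number above 8.5, per the labels. The authors deposited whole-number counts per gene symbol, unnormalised, made by a program that the sources used here leave unnamed. How reads with several matches were counted is not known, so count totals need not equal numbers of reads. The authors' TPM signal per transcript came from kallisto 0.46.1 on GRCm38 after Trimmomatic 0.39, per the submitters' processing notes, and its column sums of 953963 to 1083977 show that the deposited signal was rescaled between pools. Rows without a gene symbol were left out. The authors' comparison, from sleuth 0.30.8, holds q-values and p-values, per the file headers. Its deposited effect is on the natural log scale, read as higher in wildtype where positive from Opn4 and converted here to log2, knockout minus wildtype. Columns of other samples numbered 0.

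Counts were tested with edgeR 4.0.16 in R 4.3.3 (filterByExpr, TMM, quasi-likelihood F test, two-sided, Benjamini-Hochberg over all tested genes, threshold 0.05). Intervals are 95% intervals of the moderated fit. TPM, per transcript or summed per symbol, of at least 1 in at least 4 pools was tested with limma 3.58.1 (trend) on log2(TPM + 0.5). The exact permutation test used the 126 ways to choose 4 of 9 pools. DESeq2 1.42.0 was an alternative, beside other filters, scalings and pseudocounts, each pool left out, and a replicate block. Deviations of same-numbered pools from their group means correlated at −0.03 to 0.01, and the main fit did not pair pools. Pools of different numbers were not compared, so whether same-numbered pools share a litter cannot be settled by these values. Positions and lengths are from GENCODE M21, sequences from RefSeq, and copies of at least 95% identity over at least 100 bases were searched with BLAST 2.17.0.

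The text names all 10 markers, Opn4, of each gene list the genes past the threshold or else the 2 most abundant, and the 3 genes most like Eomes. Genes called by DESeq2 and not by edgeR were named after their values were seen. For the bipolar and cell cycle lists only counts are given. The markers, lists and tests were chosen with earlier results of these data known. Count totals were 65.5 M to 86.1 M per pool, and the intervals rest on the spread between pools. Values of some listed genes are not reported here.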

Additional observations from a re-analysis of the deposited data

Results flagged for a closer look

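In 40 groups of 4 or 5 pools (10 markers, 2 genotypes, CPM and summed TPM), 2 pools stood far from the rest of their group, and chance alone gives about 1 in 20 groups. Tbx20 measured 8.39 CPM in wildtype pool 1, the highest of its group, against 6.66 to 6.95 CPM in the other 3 wildtype pools. Igf1 measured 10.5 TPM in wildtype pool 1, the lowest of its group, while the other 3 lay between 11.1 and 11.2 TPM. In CPM the same pool held 32.9 for Igf1, inside the range of the other wildtype pools.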

How the results depend on the processing

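Of 170 marker values under other settings, 148 kept their direction and their side of the threshold, 11 were Spon1 without its call and 11 turned sign, all of the latter within 0.06 of 0 on the log2 scale except Anxa2. With each pool left out, Eomes ranged from −0.0647 to 0.0442 (above 0 without knockout pools 1 or 2 or wildtype pool 1), Tbx20 from −0.00785 to 0.131 and Igf1 from −0.0384 to 0.0626. Eomes turned to 0.0510 without knockout pools 1 and 2 and 0.00138 with TPM, and Anxa2 to 0.0829 with TPM. In the replicate block Tbx20 turned to −0.00389 and Igf1 to −0.0439. The number of called markers was 0 to 1 over the 9 fits without a single pool, 0 with no filter on low counts, 0 without knockout pools 1 and 2, and 0 with summed TPM. All genes gave 760 calls, against 1502 with DESeq2, 486 without knockout pools 1 and 2 (fewer samples) and 330 with summed TPM. In the paired fit with the replicate block, which drops knockout pool 5, 0 markers and 915 genes were called. The order of levels by CPM per kilobase was chosen after seeing the data, and with TPM rescaled to a common total 2 neighbouring pairs were separated. Why these values moved was not tested. With 5 pools against 4, the interval of Nmb spans 64.5 to 112% of wildtype.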
